A study of Mus musculus with 20 samples.

Results

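The genes described here encode the nuclear subunits of the mitochondrial respiratory chain and of ATP synthase. They were chosen by name: a probe set of the array belonged if its annotation gave exactly 1 gene symbol and that symbol began with Nduf followed by a, b, c, s or v and a number, was Sdha, Sdhb, Sdhc or Sdhd, or began with Uqcr, with Cox4 to Cox8 or with Atp5. A gene was to be represented by its probe set with the highest mean over the 20 arrays, and each had 1. This gave 84 of the 19505 named genes: 6 core and 29 accessory subunits of complex I, 4 subunits of complex II, 8 of complex III, 20 of complex IV and 17 of ATP synthase.

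RNA labelled as from mouse erythroblasts was hybridised to 20 Clariom S arrays in 10 groups of 2. Cultures were grown in medium with erythropoietin from lineage-negative bone marrow cells of 2 healthy female WT C57BL/6 mice (age not given in the labels), without (Control) or with recombinant mouse IL-6, an inflammatory cytokine, added at 100 ng/mL when the culture began (IL6). Arrays were made at time points named D1 and D2, whose length the labels leave undefined. The other arrays hold erythroblasts of healthy C57BL/6 mice aged 1 year, 2 of them double WT (DWT) and 2 with mDia1-miR-146a double KO (DKO), separated into I (proerythroblasts), IV (orthochromatic erythroblasts) and the stage between, II+III (basophilic together with polychromatic cells). The DKO mice lack both genes, so the effect of one cannot be told apart from that of the other, and no cell type to which the deletions are limited is named. At each stage the DWT array called replicate 1 came from a male and replicate 2 from a female mouse, while all DKO arrays came from female mice that are not tied to single arrays. Groups of 2 arrays limit the precision of every value.

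Complex I (NADH dehydrogenase) and complex II (succinate dehydrogenase, also an enzyme of the citric acid cycle) pass electrons to ubiquinone, complex III passes them on to cytochrome c, and complex IV (cytochrome c oxidase) to oxygen. Complexes I, III and IV pump protons across the inner mitochondrial membrane, and ATP synthase makes ATP from their return. Erythroblasts need mitochondria for haem and iron-sulfur cluster synthesis, and red cells discard all mitochondria at the end of their maturation. The subunits encoded by mitochondrial DNA were not analysed here.

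The 6 promoters below are shown because their genes were among the largest falls in the cultures and regulators of respiratory genes are known to bind close to the start. They are the 4 largest falls with a single RefSeq promoter entry and the next 2 that carry a match to the NRF1 motif, so the NRF1 matches of the last 2 follow from that choice. Each line gives the 150 bases before the annotated start, 5′ to 3′ on the strand of the gene, from RefSeq on build GRCm38.p6. Capitals mark matches on either strand to the motif of NRF1 (nuclear respiratory factor 1: GCGCA, any base, GCGC), of ETS factors such as GABPA (CCGGAAG), of YY1 (AANATGGCG) or of ERR, the oestrogen-related receptors (TCAAGGTCA).
Atp5g1 (chr11:96075632-96075781, minus strand): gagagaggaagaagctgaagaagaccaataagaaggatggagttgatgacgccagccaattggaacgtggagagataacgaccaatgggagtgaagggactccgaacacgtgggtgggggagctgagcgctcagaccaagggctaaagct
Ndufb5 (chr3:32736913-32737062, plus strand): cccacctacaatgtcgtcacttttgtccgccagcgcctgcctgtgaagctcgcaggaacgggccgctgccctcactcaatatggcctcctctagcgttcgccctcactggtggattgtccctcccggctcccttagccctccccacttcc
Atp5g3 (chr2:73911327-73911476, minus strand): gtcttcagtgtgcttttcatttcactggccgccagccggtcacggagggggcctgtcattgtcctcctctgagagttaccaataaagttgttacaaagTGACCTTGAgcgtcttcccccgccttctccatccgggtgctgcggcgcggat
Atp5g2 (chr15:102671048-102671197, minus strand): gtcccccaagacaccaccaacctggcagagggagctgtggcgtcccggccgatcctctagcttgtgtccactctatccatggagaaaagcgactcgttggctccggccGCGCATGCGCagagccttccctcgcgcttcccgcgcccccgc
Sdhd (chr9:50603850-50603999, minus strand): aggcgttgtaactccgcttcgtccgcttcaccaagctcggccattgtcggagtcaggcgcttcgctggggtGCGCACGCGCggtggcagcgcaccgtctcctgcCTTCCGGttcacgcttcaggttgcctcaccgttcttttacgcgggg
Sdha (chr13:74350241-74350390, minus strand): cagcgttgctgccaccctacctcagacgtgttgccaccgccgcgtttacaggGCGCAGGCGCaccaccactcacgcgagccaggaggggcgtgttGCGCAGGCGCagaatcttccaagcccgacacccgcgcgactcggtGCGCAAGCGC
Atp5g1, Atp5g2 and Atp5g3 encode the same mature c subunit of the ATP synthase ring with different import signals, and their upstream letters differ. Atp5g1 has no match to the 4 motifs in this window, Atp5g3 an ERR match on the opposite strand and Atp5g2 an NRF1 match that reads on both strands. Ndufb5 has none, Sdhd has 1 NRF1 and 1 ETS match, and Sdha has 3 NRF1 matches.

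Of the 84 members, 69 were found in the promoter table by symbol. In the 250 bases before the start, on either strand, 13 of these 69 (18.8%) held the NRF1 motif, against 4.23% of the 27025 genes in the table and 10.9% of the 6095 whose mean level in the cultures was above background. The ETS motif was in 12 members (17.4%), against 7.83% of all genes and 18.3% of those above background. YY1 was found in 3 members (4.35%), against 1.29% of all genes and 3.05% of those above background. ERR was found in 1 (1.45%), against 0.422% and 0.312%. These shares describe letters in the windows and say nothing of binding.

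Levels below are log2 of the array signal. Differences are differences of log2 levels with their standard error (SE) from limma, and a member was called changed at a Benjamini-Hochberg adjusted p under 0.05 over all 19572 named probe sets. A level counted as near background when it was below the 95th percentile of the 23 background probe sets on that array, a limit of 7.26 to 7.74. Of all named probe sets, 34.9% to 43.04% were above background on an array. Shares and medians over all of them thus take in many near background, and some comparisons below have only this wider set. The shares of probe sets called are at the adjusted limit. None is given for the counts at an unadjusted p under 0.05. In bulk RNA, fewer cells of a type and less RNA per cell cannot be told apart.

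Diaph1, the gene of mDia1, had levels of 9.29 to 11.49 in the DWT arrays and of 6.87 to 7.59, all near background, in the DKO arrays. It was called lower in DKO at stages I and II+III (limma, adjusted p = 0.00537 and 0.00933). At stage IV its log2 difference of -2.44 ± 0.43 did not pass (limma, adjusted p = 0.1004). A gene that did not pass at stage IV may thus still differ. The labelled cell type was less plain. At stage I the mean level of 13 neutrophil markers was 15.81 and 15.96 in DWT and 16.61 and 15.05 in DKO, against 7.27 in D1-Control, and none of them was near background in both arrays of either group. The mean of 14 erythroid markers was 12.88 and 12.71 in DWT-I and 9.30 and 8.84 in DKO-I, where 3 of the 14 were near background in both arrays. DKO-I replicate 2 stood apart: it correlated at 0.903 with its partner and at no more than 0.909 with any array, where the pairs of all other groups lay at 0.970 to 0.994. It enters the shared estimate of spread for all DWT and DKO arrays, so the members called in those comparisons are counted with and without it.

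**Figure D1:**
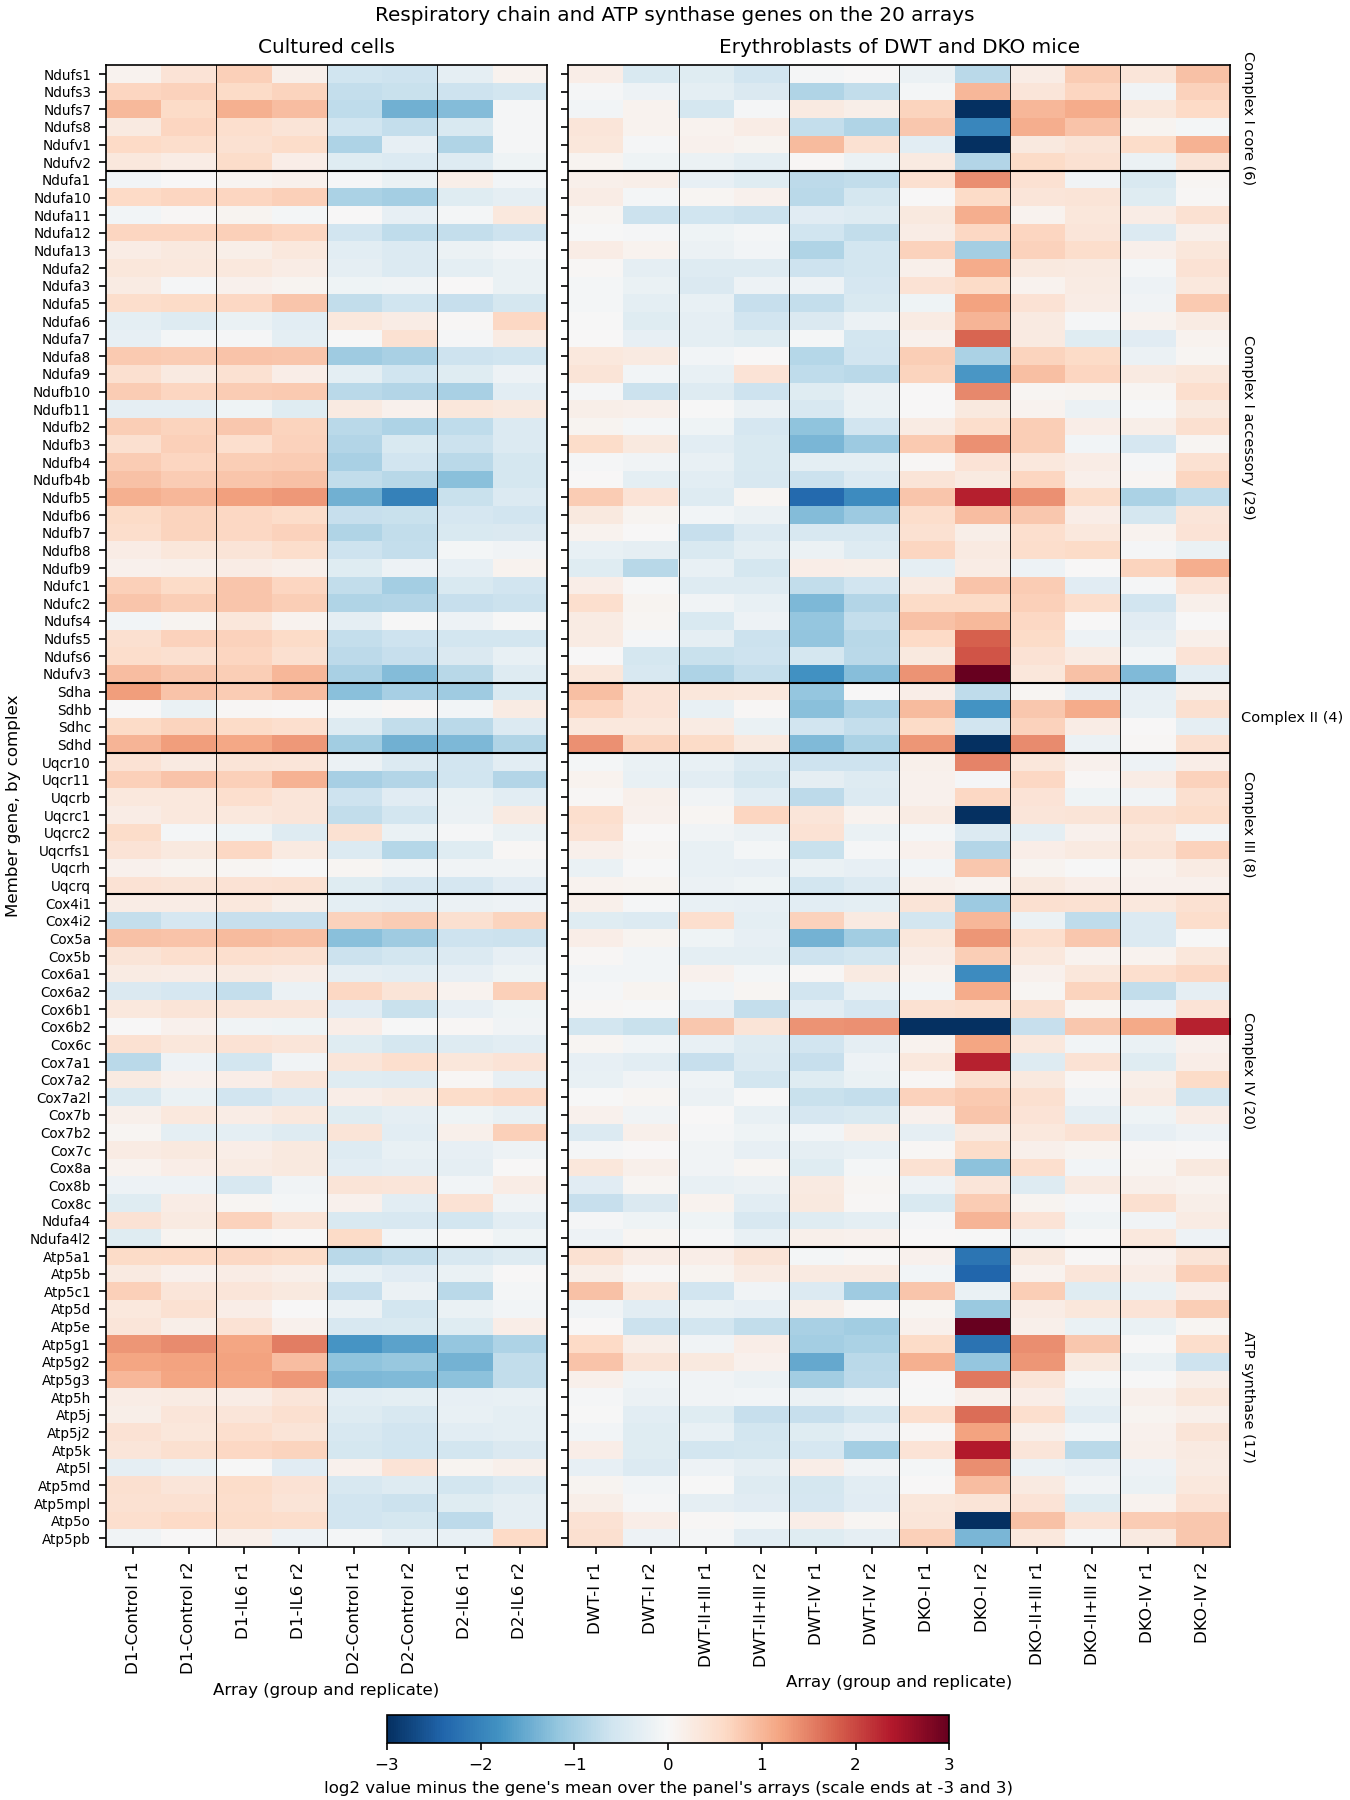
Level of each of the 84 members on each array, as the log2 level minus the gene's own mean over the arrays of the panel (red above, blue below, colours end at -3 and 3). Rows are genes grouped by complex and columns single arrays. Most rows turn from red at D1 to blue at D2 in the cultures, and DKO-I replicate 2 holds both very high and very low values.

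Of the 84 members, 71 were above background on all 20 arrays, among them all 29 accessory subunits of complex I and all 17 of ATP synthase. The members near background were mostly tissue-restricted forms in complex IV. Cox4i2, the form of subunit 4 known from lung and hypoxic cells, Cox8b, a heart and muscle form, and Ndufa4l2, a hypoxia-induced relative of the complex IV subunit Ndufa4, were above background on no array. Cox8c, a testis form, was above background on 1 array, Cox6a2 and Cox7a1, heart and muscle forms, on 6 and 8, and Cox7b2, a testis form, on 16. The common forms Cox4i1, Cox6a1, Cox7a2 and Cox8a, and Ndufa4, were above background on all 20.

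Cox6b2 was the exception among the tissue forms. It is best known as the testis form of subunit 6b, the complex IV subunit on the side where cytochrome c docks. Its level was 14.99 and 15.10 in D1-Control, 14.86 and 14.84 in D1-IL6, 15.17 and 14.96 in D2-Control and 15.01 and 14.88 in D2-IL6. All 8 cultures were thus far above background. Among the common subunits, Sdhc was above background on 9 arrays, Ndufs7 on 17, Sdha on 18, and Ndufs1, Sdhd and Uqcrc2 on 19.

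In the cultures without IL-6, members of every complex fell from D1 to D2. Of the 84 members, 62 fell, 7 rose and 15 did not pass, where 23.5% of all named probe sets fell and 19.7% rose. Among the 7350 probe sets with a mean above background in the cultures, 77 of them members, 49.4% fell and 19.9% rose. The median log2 difference of the members was -0.86, against 0.17 over all named probe sets and -0.71 over those above background. Those that fell were 6 of 6 core and 21 of 29 accessory subunits of complex I, 3 of 4 in complex II, 6 of 8 in complex III, 11 of 20 in complex IV and 15 of 17 in ATP synthase.

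The scaling of the arrays bears on the rises. The median of all named probe sets shifted by 0.17 on the log2 scale at this step, and by 0.03 and 0.04 after quantile normalization and median centring. With quantile normalization 54 members were called lower and 7 higher, and with median centring 64 lower and 2 higher, Cox4i2 and Ndufb11. Of these, Cox4i2 was near background on every array. No call changed its direction.

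All 3 genes of the c ring were among the largest falls. Atp5g1 had a level of 13.41 and 13.50 in D1-Control and of 10.32 and 10.46 in D2-Control. Both D2 arrays lay below both D1 arrays, and the log2 difference was -3.06 ± 0.20 (SE), an 8.35-fold fall (limma, adjusted p = 1.04e-06). Atp5g3 had levels of 14.23 and 14.40 and then 11.87 and 11.91, a fall of 2.42 ± 0.19 on the log2 scale (limma, adjusted p = 2.85e-06). Atp5g2 went from 11.14 and 11.17 to 8.73 and 8.80, a log2 difference of -2.39 ± 0.29 (limma, adjusted p = 6.97e-05). The probe sequences were not used here, so signal shared between these similar transcripts was not tested.

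The other ATP synthase subunits fell less. Atp5a1, the alpha subunit of the catalytic head, went from 16.59 and 16.60 to 15.18 and 15.29, a log2 difference of -1.35 ± 0.08 (limma, adjusted p = 4.44e-07). Atp5b, the catalytic beta subunit, fell by 0.49 ± 0.09 on the log2 scale (limma, adjusted p = 0.00118). The falls of the remaining members lay between -1.10 for Atp5o and -0.54 for Atp5h, both of the peripheral stalk, with Atp5c1, Atp5d and Atp5e of the central stalk in between. The calls of these 3 were lost when 1 of several arrays was left out, for Atp5e any 1 of the 4. Atp5l, the membrane subunit g, rose by 0.50 ± 0.16 (limma, adjusted p = 0.0247), and Atp5pb, subunit b of the peripheral stalk, had a difference of -0.09 ± 0.26 that did not pass. The call of Atp5l was lost with median centring and without D1-Control replicate 1, D1-Control replicate 2 or D2-Control replicate 2 (adjusted p = 0.0237 to 0.149 when 1 array was left out).

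Complex II was split. Sdha, the flavin-carrying subunit that oxidises succinate, had levels of 10.26 and 9.86 in D1-Control and 7.75 and 8.01 in D2-Control, a fall of 2.18 ± 0.31 on the log2 scale (limma, adjusted p = 0.000218). Sdhd, a membrane anchor, had levels of 11.07 and 11.31 and then 9.02 and 8.60, a fall of 2.38 ± 0.28 (limma, adjusted p = 5.72e-05). For both genes the D2 arrays lay wholly below the D1 arrays. Sdhc, the other membrane anchor, was near background in both D2-Control arrays. Its measured log2 difference of -1.185 passed (limma, adjusted p = 0.00634), a call that was lost with quantile normalization. Set against the background level, which was not itself tested, the log2 difference was -0.61 or below.

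Sdhb, the iron-sulfur subunit of the same complex, did not pass. Its level was 14.08 and 13.88 in D1-Control and 14.02 and 14.09 in D2-Control. These ranges overlap, and the log2 difference was 0.08 ± 0.15 (limma, adjusted p = 0.693). Whether its change differed from that of the other 3 subunits was not tested.

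In complex I, Ndufb5, an accessory subunit of the membrane arm, fell most. Its level was 12.58 and 12.52 in D1-Control and 10.08 and 9.49 in D2-Control, a log2 difference of -2.77 ± 0.24 (limma, adjusted p = 7.23e-06). Ndufv3, an accessory subunit of the NADH-binding module, fell by 2.004 ± 0.28 (limma, adjusted p = 0.000229). Ndufa8, an accessory subunit on the intermembrane side, fell by 1.78 ± 0.14 (limma, adjusted p = 2.76e-06). Ndufb4 and Ndufb4b, near-identical copies whose signals may be shared, fell by 1.47 ± 0.14 and 1.60 ± 0.21.

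All 6 core subunits of complex I were called lower, though not each under every alternative. Ndufs7, which carries the last iron-sulfur cluster before ubiquinone, fell by 1.86 ± 0.42 on the log2 scale (limma, adjusted p = 0.00462), with 1 D2-Control array near background. Ndufs3, a core subunit of the peripheral arm, went from 16.13 and 16.18 to 14.76 and 14.82, a fall of 1.36 ± 0.09 (limma, adjusted p = 8.81e-07). Ndufv1, which binds NADH and flavin, fell by 1.15 ± 0.28, and Ndufs1, the largest core subunit, by 0.88 ± 0.29 (limma, adjusted p = 0.007 and 0.0329). The call of Ndufs1 was lost with quantile normalization, in 1 fit of all 20 arrays and without any 1 of the 4 arrays (adjusted p = 0.068 to 0.183 when 1 was left out). That of Ndufv1 was lost without D2-Control replicate 1 (adjusted p = 0.0596), and that of Ndufv2, another core subunit, without D1-Control replicate 1.

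Some accessory genes of complex I moved the other way. Ndufa6, of the peripheral arm, had levels of 12.42 and 12.34 in D1-Control and 13.02 and 12.93 in D2-Control, a rise of 0.60 ± 0.21 on the log2 scale (limma, adjusted p = 0.039). Ndufb11, of the membrane arm, rose by 0.49 ± 0.10 (limma, adjusted p = 0.00287), and by 0.36 with median centring. The call of Ndufa6 was lost with median centring and without any 1 of the 4 arrays (adjusted p = 0.0836 to 0.154 when 1 was left out). The accessory genes that did not pass were Ndufb9, Ndufa3, Ndufs4, Ndufa11, Ndufa1 and Ndufa7, with differences of -0.38 to 0.38.

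In complex III, Uqcr11, a small accessory subunit, fell most, by 1.72 ± 0.18 on the log2 scale (limma, adjusted p = 2.75e-05). Uqcrfs1, the Rieske iron-sulfur protein, fell by 0.98 ± 0.26, and Uqcrc1, a core protein, by 0.91 ± 0.19 (limma, adjusted p = 0.0105 and 0.00275). Uqcrh, the hinge protein next to cytochrome c1, had a difference of -0.13 ± 0.07, and Uqcrc2, the other core protein, of -0.12 ± 0.33. Neither passed. The call of Uqcrfs1 was lost without D1-Control replicate 1 or D2-Control replicate 2 (adjusted p = 0.0105 to 0.0669 when 1 array was left out).

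Complex IV had the widest mix. Cox5a, a matrix-side subunit, had levels of 14.53 and 14.50 in D1-Control and of 12.41 and 12.58 in D2-Control, a fall of 2.02 ± 0.14 on the log2 scale (limma, adjusted p = 1.15e-06). The common forms Cox4i1, Cox6a1, Cox6b1, Cox7a2 and Cox8a fell by 0.53, 0.53, 0.86, 0.58 and 0.45, and the call of Cox8a was lost without D1-Control replicate 2 (adjusted p = 0.0777). Cox6b2, described above, had a difference of 0.02 ± 0.11 that did not pass (limma, adjusted p = 0.905).

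The complex IV genes called higher were 4. Cox7a2l went from 12.48 and 12.73 to 13.13 and 13.19, a rise of 0.56 ± 0.17 on the log2 scale (limma, adjusted p = 0.0203). This rise did not pass with median centring (limma, adjusted p = 0.0794). It also did not pass without D1-Control replicate 1, D2-Control replicate 1 or D2-Control replicate 2. Cox7a1 was near background in both D1-Control arrays and had a bound of 0.12 on the log2 scale. Cox6a2 was near background in 3 of the 4 arrays and Cox4i2 in all 4, so no fold is given for either.

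**Figure D2:**
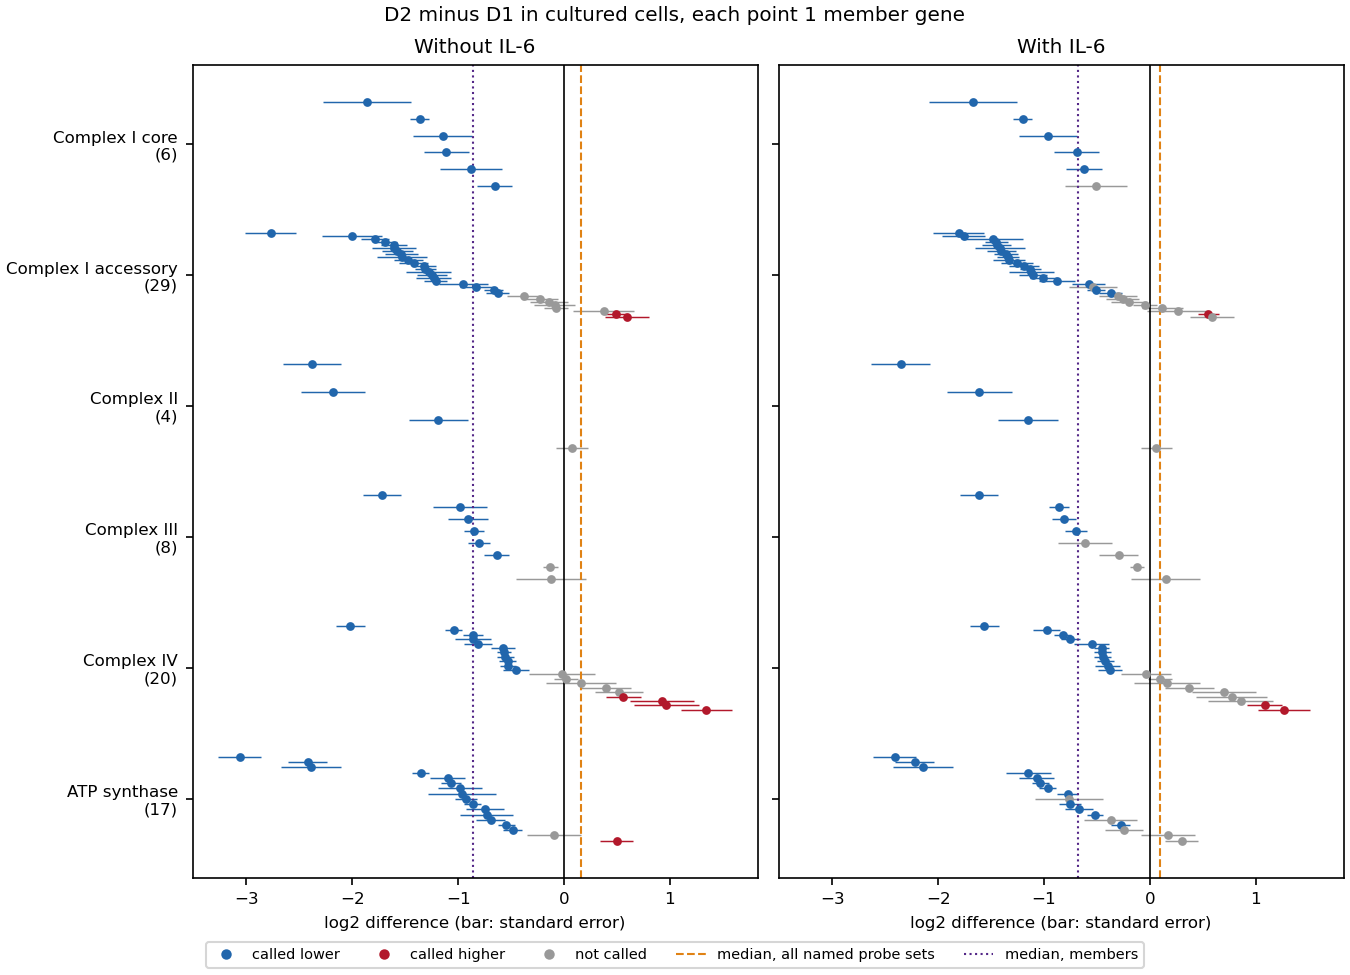
Log2 difference D2 minus D1 of each member (point) with its SE (bar), by complex, in cultures without IL-6 (left) and with IL-6 (right); blue and red points were called lower and higher. Most points lie left of 0, and the median of the members (dotted, -0.86 and -0.68) lies left of that of all named probe sets (dashed, 0.17 and 0.09). The dashed lines take in probe sets near background. The median over those above background is not drawn, and without IL-6 it lay closer to that of the members.

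Set against the promoter letters, 12 of the 53 members with a promoter entry that fell (22.6%) and 1 of the other 16 (6.25%) held the NRF1 motif. For ETS the counts were 10 of 53 and 2 of 16. YY1 lay the other way, in 1 of 53 and 2 of 16, and ERR was in 1 of 53 and 0 of 16. The differences in share were not tested.

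Genes that serve the same complexes are set here against the shares given above, a fall in 23.5% of all named probe sets and in 49.4% of those with a mean above background. Of 46 measured assembly factors, 27 fell and 0 rose, with Uqcc2, a complex III factor, at -3.18 ± 0.26 on the log2 scale and Ndufaf2, a complex I factor, at -2.92 ± 0.32. Bcs1l, which inserts the Rieske protein, was near background in both D2-Control arrays, and set against the background level its log2 difference was -1.52 or below. Of 17 electron carrier and coenzyme Q genes, 7 fell and 1 rose, with Cycs, cytochrome c, at -2.003 ± 0.13. Coq7, an enzyme of ubiquinone synthesis, was near background in both D2-Control arrays and had a log2 difference of -2.96 or below. Of 24 genes of the citric acid cycle and pyruvate dehydrogenase, 16 fell and 2 rose, with the isocitrate dehydrogenases Idh2 and Idh3a at -4.44 ± 0.27 and -4.001 ± 0.28, and 1 D2-Control array of Idh2 near background. The medians of the 3 lists were -1.08, -0.82 and -1.07, against -0.71 over the probe sets above background.

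Regulators and ribosomal proteins are set against the same shares. Of 22 genes for mitochondrial DNA upkeep and for regulators of respiratory genes, 12 fell and 1 rose, with Tfb1m, which modifies mitochondrial ribosomal RNA, at -2.34 ± 0.36, Tfam, which packages mitochondrial DNA, at -1.95 ± 0.34 with 1 D2-Control array near background, and Nrf1 itself at -1.05 ± 0.16 on the log2 scale. Of 76 mitochondrial ribosomal protein genes 68 fell, and of 60 cytosolic ones 44 fell. The medians of these 3 lists were -0.86, -1.89 and -0.39. Of 14 genes of mitochondrial clearance 10 rose and 3 fell, where 19.7% of all named probe sets and 19.9% of those above background rose. Among them Ulk1, a kinase that starts autophagy, rose by 5.93 ± 0.21, Gabarapl2 by 3.91 ± 0.18 and Sqstm1 by 3.72 ± 0.17. Bnip3l, the receptor needed for mitochondrial removal in reticulocytes, rose by 2.61 ± 0.12. Those that fell were Phb2, a prohibitin of the inner membrane, at -2.97 ± 0.11, Atg5 at -2.03 ± 0.25 and Atg7 at -1.88 ± 0.35.

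Markers of other cells moved at the same step. From D1-Control to D2-Control the mean log2 level went from 10.60 to 7.45 over 7 granulocyte progenitor markers, from 9.48 to 7.17 over 10 mast cell, basophil and eosinophil markers, from 8.83 to 7.09 over 14 monocyte and macrophage markers and from 7.85 to 5.87 over 7 stem and progenitor markers. In D2-Control 4, 7, 7 and 6 of them were near background in both arrays. The mean of the erythroid markers went from 14.79 to 15.10. Their part in the fall of the respiratory genes was not tested.

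With IL-6, the same step gave 55 members lower and 3 higher, where 20.2% of all named probe sets fell and 13% rose. The share among probe sets above background is not given for this step. Without IL-6, 49.4% of those above background fell, against 23.5% of all named probe sets. The 55 were all among the 62 that fell without IL-6, and the 3 that rose, Ndufb11, Cox7a2l and Cox4i2, were among the 7. Of these, Cox4i2 was near background on every array, so no fold is given for it. Atp5g1 had levels of 13.26 and 13.62 in D1-IL6 and 10.92 and 11.14 in D2-IL6, a log2 difference of -2.41 ± 0.20 (limma, adjusted p = 7.58e-06). Sdhd and Atp5g3 came next, with log2 differences of -2.36 ± 0.28 and -2.22 ± 0.19 (limma, adjusted p = 7.92e-05 and 6.91e-06). Cox7a2l rose by 1.09 ± 0.17 (limma, adjusted p = 0.000522). Sdhb again did not pass, with levels of 14.10 and 14.09 in D1-IL6 and 13.98 and 14.33 in D2-IL6.

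The markers of other cells moved in part differently with IL-6. From D1-IL6 to D2-IL6 the mean log2 level went from 11.85 to 9.10 over the granulocyte progenitor markers, from 9.23 to 6.82 over those of mast cells, basophils and eosinophils and from 7.73 to 5.85 over those of stem and progenitor cells. The monocyte and macrophage mean went from 9.16 to 9.69, the opposite direction to the cultures without IL-6, the neutrophil mean from 7.96 to 8.02 and the erythroid mean from 14.67 to 14.92. In D2-IL6 2 of 7, 8 of 10, 6 of 7, 5 of 14 and 7 of 13 were near background in both arrays. Their part in the falls with IL-6 was not tested.

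The cultures also address whether IL-6 changes the respiratory genes. At D1 limma called 0 of 84 members, with 0 at an unadjusted p under 0.05, where 0.046% of all named probe sets were called higher and 0.00511% lower. The log2 differences of the members ran from -0.51 to 0.24, and 57 were positive.

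At D2 limma called 2 members higher with IL-6, both accessory subunits of complex I, and none lower, where 2.92% of all named probe sets were called higher and 0.393% lower. Ndufb5 had levels of 10.08 and 9.49 in D2-Control and 10.86 and 11.11 in D2-IL6. The arrays did not overlap, and the log2 difference was 1.20 ± 0.24 (limma, adjusted p = 0.0206). Ndufa10, on the matrix side of the membrane arm, had levels of 13.02 and 12.93 against 13.59 and 13.69, a log2 difference of 0.67 ± 0.13 (limma, adjusted p = 0.0146).

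Both calls rest on few arrays: the number called was 0 without D2-Control replicate 2, 0 without D2-IL6 replicate 2 and 3 without D2-IL6 replicate 1. Of the 84 differences 68 were positive and 17 had an unadjusted p under 0.05. The median of the members was 0.16, against -0.07 over all named probe sets. The largest differences that did not pass were those of Uqcrc1, at 0.68 ± 0.19, and Atp5g1, at 0.64 ± 0.20 (limma, adjusted p = 0.0919 and 0.16). At D2 the neutrophil marker mean was 5.85 and 5.84 without and 8.14 and 7.90 with IL-6, with 12 and 7 of 13 near background in both arrays, and the monocyte and macrophage mean was 6.96 and 7.23 against 9.74 and 9.64. Their part in the higher levels was not tested.

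Whether the effect of IL-6 differed between D2 and D1 was tested as an interaction. Limma called 0 of 84 members, with 7 at an unadjusted p under 0.05, where 1.17% of all named probe sets were called higher at D2 and 0.0153% lower. For Ndufb5 the difference between the effects was 0.96 ± 0.34 on the log2 scale (limma, adjusted p = 0.413).

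In the DWT erythroblasts no member passed at either single stage step. From stage I to II+III 74 of 84 differences were negative, with a median of -0.27 against 0.02 over all named probe sets, and 1 had an unadjusted p under 0.05 by limma, where 0.0255% of all named probe sets rose and 0.22% fell. This step gave, without DKO-I replicate 2, 0 members higher and 0 lower, with 3 at an unadjusted p under 0.05, where 1.51% of all named probe sets were called. From II+III to IV 54 were negative, with a median of -0.13 against 0.12, and 5 had an unadjusted p under 0.05, where 1.59% rose and 3.57% fell. At this second step 8 members were called lower without DKO-I replicate 2, which is outside the comparison, where 9.84% of all named probe sets fell, and 9 with the mouse as a replicate block, where 13% fell. Among these members were Ndufb5 at -1.95 and Cox5a at -1.05 in both fits. With the block Cox6b2 was called higher at the first step, by 1.21, where 2.16% of all named probe sets rose.

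From stage I to IV in DWT, a span added after the single steps were seen, 5 members fell and 1 rose, where 10.5% of all named probe sets fell and 8.17% rose. Ndufb5 had levels of 13.25 and 12.90 at stage I, 12.11 and 12.56 at II+III and 10.17 and 10.62 at IV. Each stage lay below the one before, and the log2 difference IV minus I was -2.68 ± 0.52 (limma, adjusted p = 0.00596). Ndufb3, Ndufc2 and Ndufb6, also accessory subunits of the membrane arm, fell by 1.64 ± 0.43, 1.39 ± 0.35 and 1.38 ± 0.37, and Cox5a by 1.39 ± 0.39 (limma, adjusted p = 0.0236, 0.0188, 0.0269 and 0.0307). The median of the members was -0.44, against 0.17 over all named probe sets and -0.28 over those above background.

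Complex II depended on DKO-I replicate 2, which is outside this span. Sdhb had levels of 13.82 and 13.59 at stage I and 11.94 and 12.25 at stage IV, a log2 difference of -1.61 ± 0.70 (limma, adjusted p = 0.141). Sdhd had levels of 10.83 and 10.13 and then 8.14 and 8.51, a log2 difference of -2.16 ± 1.23 (limma, adjusted p = 0.252). Neither gene's arrays overlapped between the stages. Without DKO-I replicate 2 all 4 subunits were called lower, with Sdhb at -1.61 ± 0.29 and Sdhd at -2.16 ± 0.50 (limma, adjusted p = 0.00242 and 0.00933), while Sdhc was near background in both DWT-IV arrays and Sdha in 1. The members called over this span numbered 25 lower and 2 higher without DKO-I replicate 2, where 15.8% of all named probe sets fell and 14.8% rose. With the mouse as a replicate block they numbered 29 lower and 3 higher, where 17.8% fell and 15.7% rose. Without DWT-I replicate 1 or DWT-IV replicate 1 none was called, while 1 was called without DWT-I replicate 2 and 3 were without DWT-IV replicate 2.

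Cox6b2 rose along the same path. Its level was 12.06 and 11.94 in DWT-I, 13.42 and 13.001 in DWT-II+III and 13.96 and 13.97 in DWT-IV. Each stage lay above the one before, and the log2 difference IV minus I was 1.97 ± 0.54 (limma, adjusted p = 0.0281), and 1.97 ± 0.49 without DKO-I replicate 2 (limma, adjusted p = 0.0127). This call was lost without any 1 of the 4 DWT-I and DWT-IV arrays (adjusted p = 0.103 to 0.145 when 1 was left out). In DKO its level was 9.58 and 9.39 at stage I, 11.93 and 13.42 at II+III and 13.75 and 14.92 at IV. The stages again did not overlap, and the log2 difference IV minus I was 4.85 ± 0.54, a 28.8-fold rise (limma, adjusted p = 0.00029), and 4.75 ± 0.60 without DKO-I replicate 2 (limma, adjusted p = 0.000595).

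The cell type markers moved over the same stages. The erythroid mean was 12.79, 14.45 and 15.74 at stages I, II+III and IV in DWT and 9.07, 12.41 and 15.53 in DKO. The neutrophil mean was 15.88, 11.84 and 8.67 in DWT and 15.83, 15.07 and 11.81 in DKO. Their part in the rise of Cox6b2 and in the falls was not tested.

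**Figure D3:**
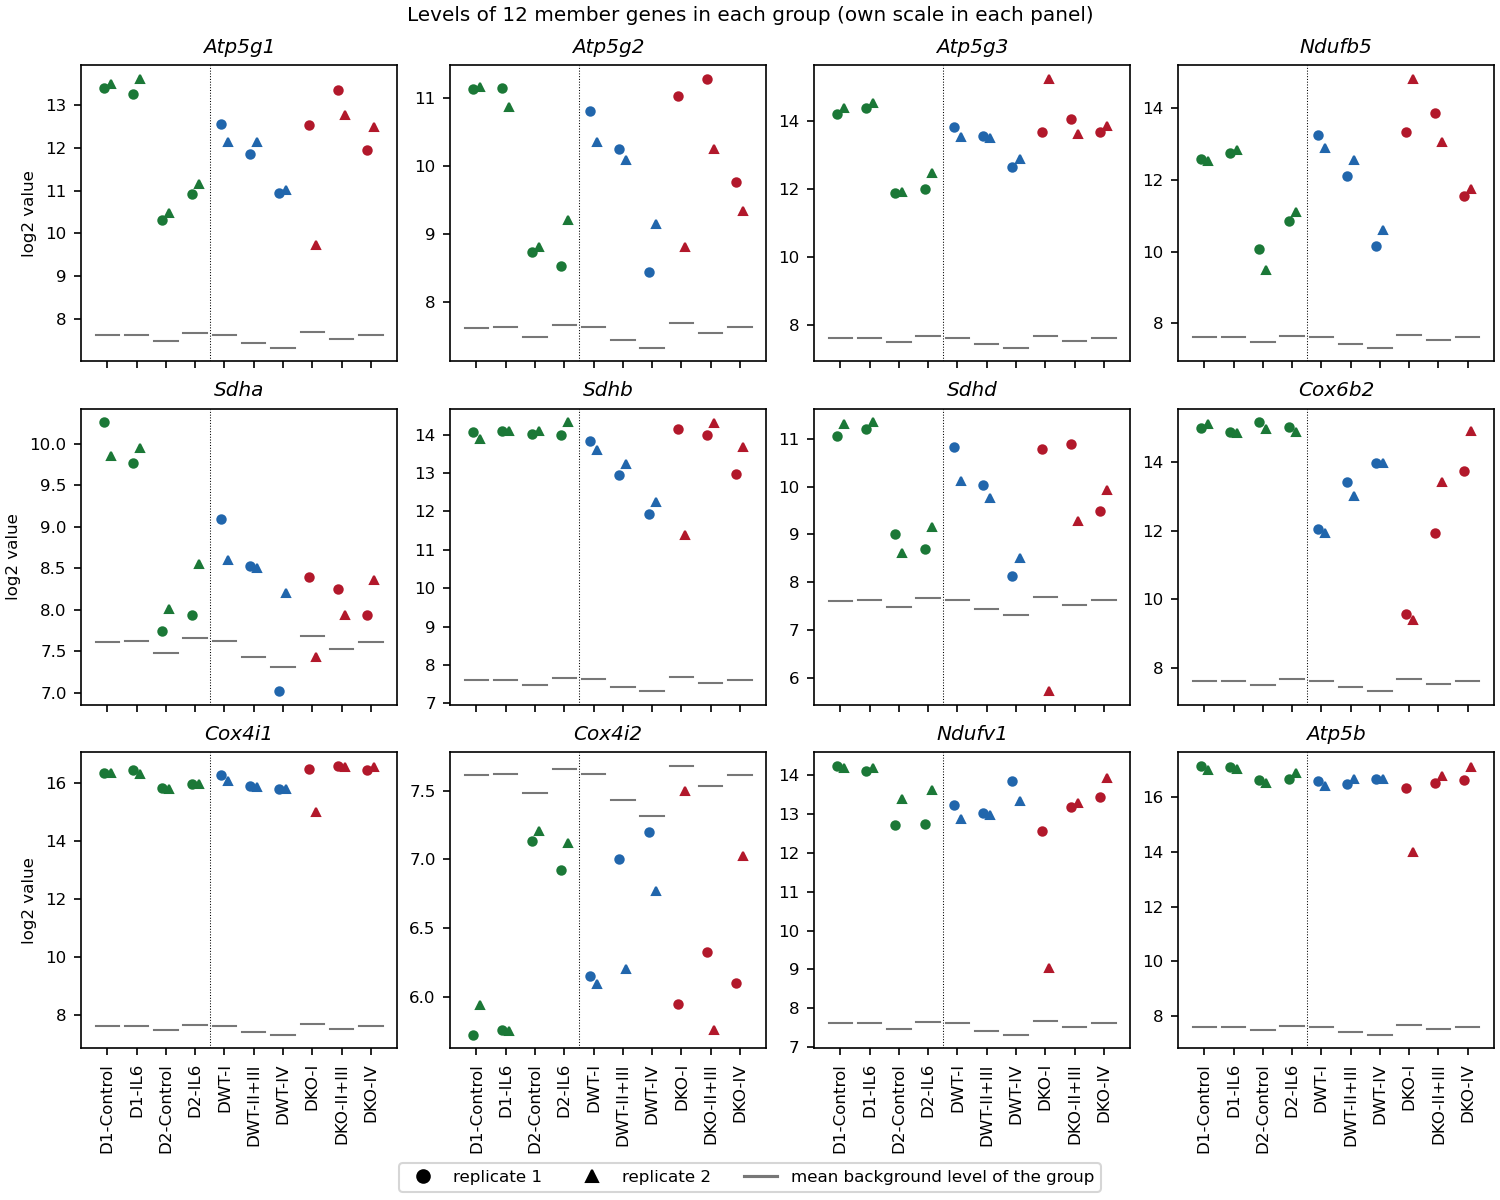
Log2 level of 12 members on each array, with circles for replicate 1, triangles for replicate 2 and a grey line for the mean background level of each group; green marks cultures, blue DWT and red DKO. Each panel has its own scale, so panels are not comparable in level. The c-ring genes, Ndufb5, Sdha and Sdhd lie lower at D2 than at D1, Sdhb overlaps between them without IL-6, and Cox6b2 rises over the stages.

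In DKO the span from stage I to IV, also added later, gave 2 members higher and 2 lower, where 7.72% of all named probe sets rose and 7.55% fell. The span gave, without DKO-I replicate 2, 3 higher and 2 lower, where 7.83% rose and 9.84% fell. Besides Cox6b2, Ndufv1 was called higher, at 2.89 ± 0.85 on the log2 scale, and Ndufv3 and Ndufb5 lower, at -3.48 ± 0.74 and -2.43 ± 0.52 (limma, adjusted p = 0.0445, 0.0101 and 0.0103). The size of all 3 rests in part on DKO-I replicate 2, without which the differences were 1.12 ± 0.34, -2.17 ± 0.54 and -1.69 ± 0.43 (limma, adjusted p = 0.0499, 0.0194 and 0.0207). Without DKO-IV replicate 1 none of the 3 was called, and without DKO-IV replicate 2 Ndufv1 and Ndufb5 were not, while Cox6b2 was called under every alternative run. Ndufv1 was also not called with median centring or without the intensity trend.

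Of the single DKO steps, I to II+III gave Cox6b2 higher, at 3.19 ± 0.54 (limma, adjusted p = 0.0394), where 0.24% of all named probe sets rose and 0.0869% fell, and no member with quantile normalization, without DKO-I replicate 2 or without DKO-II+III replicate 2. The step from II+III to IV gave 0 members by limma, with 5 at an unadjusted p under 0.05, where 4.11% rose and 3.66% fell, and 2 higher and 4 lower without DKO-I replicate 2, where 8.69% rose and 9.8% fell.

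The comparison of genotypes asks whether respiratory genes differ in erythroblasts that lack mDia1 and miR-146a. At stage I limma called 0 of 84 members, with 14 at an unadjusted p under 0.05, where 0.0562% of all named probe sets were called higher and 0.388% lower. Positive differences numbered 56, and the median was 0.39 against 0.15 over all named probe sets. They made up 25 of 29 accessory and 1 of 6 core subunits of complex I, 0 of 4 in complex II, 5 of 8 in complex III, 16 of 20 in complex IV and 9 of 17 in ATP synthase. Without DKO-I replicate 2 positive differences numbered 70, 3 had an unadjusted p under 0.05, 0 were called and the median was 0.25, where 0.552% of all named probe sets were called. Without DKO-I replicate 1, so that replicate 2 stood alone, 29 members were called higher and 19 lower, where 31% of all named probe sets were called.

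That array had extreme levels in both directions. Ndufv1 had a level of 9.03 there against 12.56 to 13.22 in the other 3 stage I arrays, and Atp5b 13.998 against 16.30 to 16.56. Sdhd had a level of 5.72, near background, against 10.13 to 10.83. Ndufv3 had 13.72 against 9.28 to 11.10, and Atp5e, the epsilon subunit of the central stalk, 15.48 against 10.86 to 11.64. Ndufv1, Atp5b and Sdhd were thus low there, while Ndufv3 and Atp5e were high.

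At stage II+III most members had a higher level in DKO, and none passed. Limma called 0 of 84, with 5 at an unadjusted p under 0.05, where 0.22% of all named probe sets were called higher and 0.399% lower. Positive differences numbered 79, and 56 members had both DKO arrays above both DWT arrays, as did 23% of all named probe sets. The median was 0.51, against 0.01 over all named probe sets, and that over the probe sets above background is not given for this stage.

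Ndufs7 gives an example. Its level was 7.69 and 8.18 in DWT-II+III and 9.21 and 9.33 in DKO-II+III, a log2 difference of 1.33 ± 0.99 (limma, adjusted p = 0.797). Without DKO-I replicate 2, which is outside this comparison, 3 members were called higher and 0 lower, where 1.06% of all named probe sets were called higher and 1.9% lower. They were Ndufs7 at 1.33, Ndufb7, an accessory subunit of complex I, at 0.96 and Cox4i1 at 0.71 (limma, adjusted p = 0.0467, 0.0403 and 0.0292). Cox6b2 had the opposite sign, at -0.54 ± 0.54, and did not pass.

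At stage IV limma again called 0 of 84, where 0.0204% of all named probe sets were called higher and 0.0255% lower. At an unadjusted p under 0.05 there were 13 members, for which no share over all probe sets is given. Without DKO-I replicate 2, which is outside this comparison, 0 were called, where 0.307% of all named probe sets were. In that fit 50 of the 84 members had an unadjusted p under 0.05. Positive differences numbered 79, which left 5 negative ones, Cox4i2, Cox7b2, Cox6a2, Ndufa4l2 and Cox8b, at -0.42 to -0.04. In 66 members both DKO arrays lay above both DWT arrays, as in 22.4% of all named probe sets. The median was 0.62, against -0.02 over all named probe sets and 0.11 over those above background.

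Ndufb2, an accessory subunit of complex I, had levels of 12.89 and 13.52 in DWT-IV and 14.27 and 14.57 in DKO-IV, a log2 difference of 1.22 ± 0.36 (limma, adjusted p = 0.383). Atp5g1 had levels of 10.93 and 11.004 in DWT-IV and 11.95 and 12.49 in DKO-IV, a log2 difference of 1.25 ± 0.73 (limma, adjusted p = 0.738). Sdhb had levels of 11.94 and 12.25 in DWT-IV and 12.97 and 13.66 in DKO-IV, a log2 difference of 1.22 ± 0.70 (limma, adjusted p = 0.736). In all 3 genes the DKO arrays lay above the DWT arrays.

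**Figure D4:**
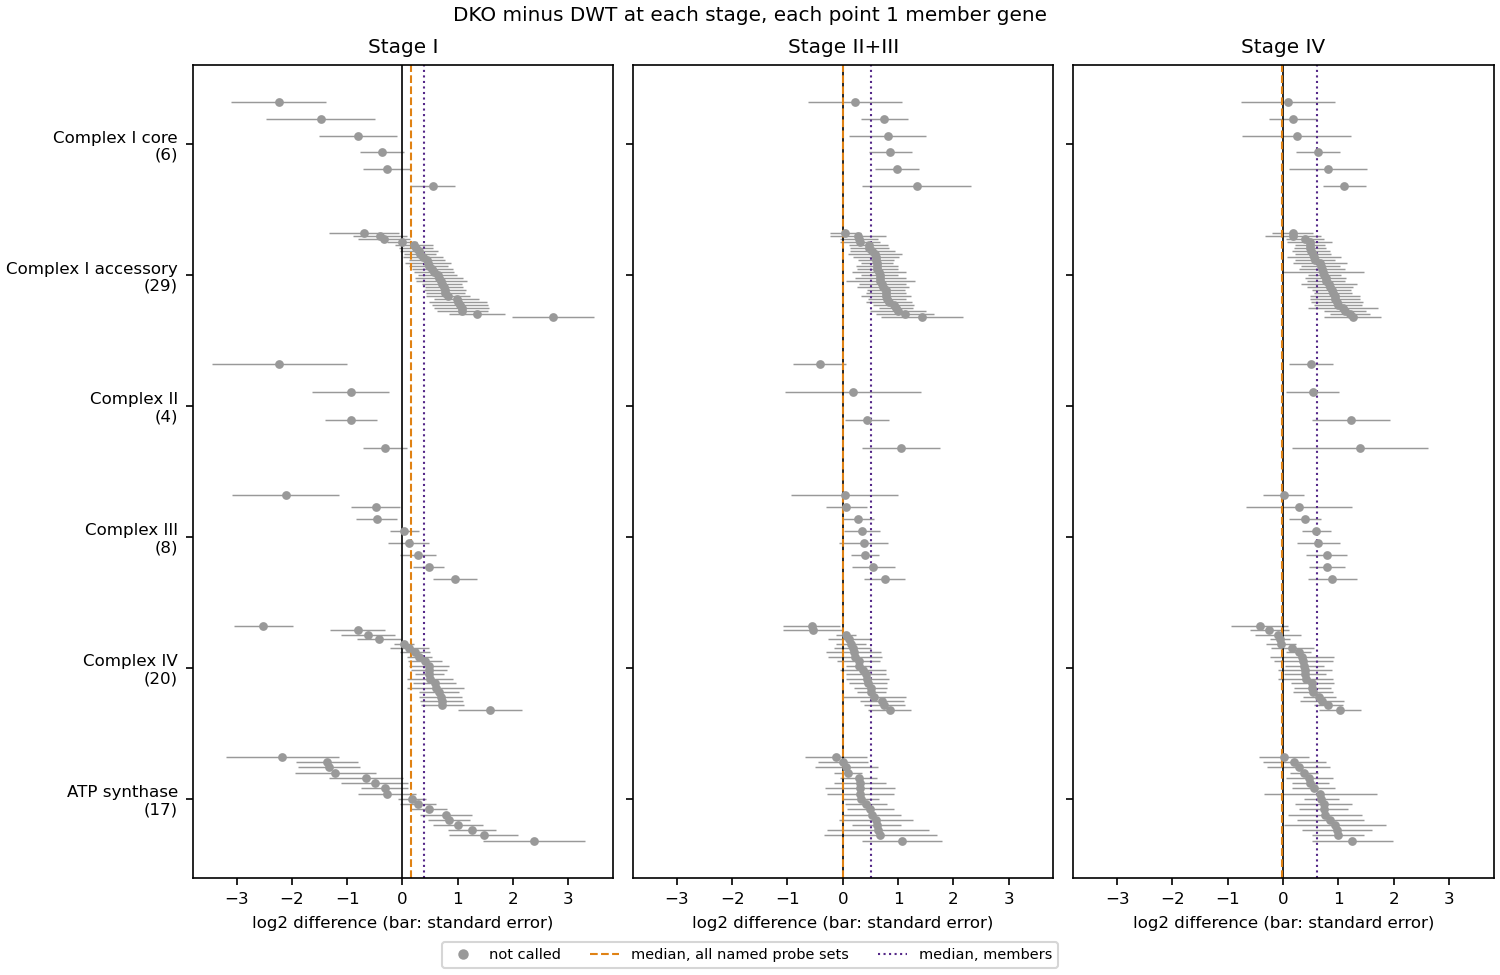
Log2 difference DKO minus DWT of each member (point) with its SE (bar), by complex, at stages I, II+III and IV. No member was called at any stage. At II+III and IV 79 of 84 points lie right of 0, with member medians (dotted) of 0.51 and 0.62, while the medians of all named probe sets (dashed) lie at 0.01 and -0.02.

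Ribosomal protein genes had the same sign. At stage II+III 67 of 76 mitochondrial and 57 of 60 cytosolic ribosomal protein genes had positive differences, and at stage IV 72 of 76 and 60 of 60, with 0 called at either stage by limma. Without DKO-I replicate 2, 4 mitochondrial ones were called higher at II+III and 0 cytosolic ones, and 0 of either kind at IV. In that fit 1.06% of all named probe sets were called higher at II+III and 0.22% at IV. Assembly factors of the complexes had 37 of 46 positive differences at II+III and 30 of 46 at IV, and citric acid cycle genes 16 and 13 of 24. Among female arrays alone, with 1 DWT array left at each stage, 78 of 84 members were positive at II+III and 79 at IV, with 0 called by limma and 0 at an unadjusted p under 0.05 at either stage. The DWT arrays of the stages come from the same 2 mice, so the stages are not separate sets of animals.

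Cell type markers differed between the genotypes too. At II+III the erythroid mean was 14.85 and 14.05 in DWT and 11.86 and 12.95 in DKO, and the neutrophil mean 11.01 and 12.67 against 15.10 and 15.03. At IV the erythroid mean was 15.83 and 15.65 against 15.51 and 15.56, and the neutrophil mean 7.66 and 9.67 against 12.10 and 11.53, with 2 and 1 of 13 markers near background in both arrays. Their part in the higher respiratory levels was not tested.

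**Figure D5:**
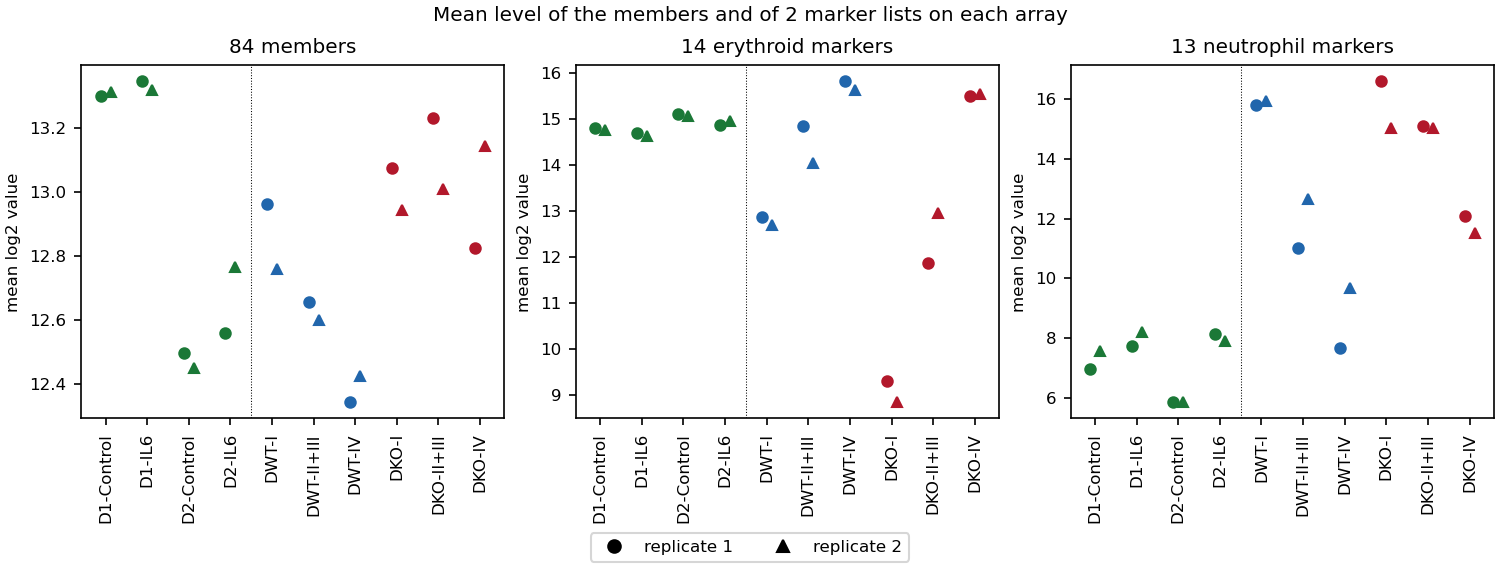
Mean log2 level over the 84 members, over 14 erythroid markers and over 13 neutrophil markers on each array, with circles for replicate 1 and triangles for replicate 2; green marks cultures, blue DWT and red DKO. The members' mean lies between 12.34 and 13.35 on all arrays, is lower at D2 than at D1, falls over the DWT stages and is higher in DKO-II+III and DKO-IV than in DWT at these stages.

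Whether the stage steps differed between the genotypes was tested as interactions. For the step from I to II+III limma called 0 members, with 3 at an unadjusted p under 0.05, and for the step from II+III to IV 0, with 0. In both tests 0% of all named probe sets were called in either direction. Both tests again called, without DKO-I replicate 2, 0 members, with 1 and 1 at an unadjusted p under 0.05, where 0.00511% and 0% of all named probe sets were called. The differences between the genotypes were then positive for 73 and 56 of 84 members. Without DKO-I replicate 1, so that DKO-I replicate 2 stood alone, the first test gave 20 members higher and 5 lower, where 8.01% of all named probe sets were called higher and 5.79% lower.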

How the data were processed

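The authors deposited log2 expression values for 28846 probe sets on 20 arrays. Per the submitters' processing notes these came from Affymetrix Expression Console and RMA (versions and genome build not given in the sources used here). RMA corrects background, normalizes by quantiles and summarises probes on the log2 scale, which compresses differences near background. Per the labels, 700 pg of total RNA per sample was amplified with a Pico kit. Gene names come from the platform annotation, and 19572 probe sets with exactly 1 symbol were kept.

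Comparisons were fitted with limma 3.58.1 in R 4.3.3 (lmFit, eBayes with an intensity trend, Benjamini-Hochberg over the 19572 probe sets, no filter). The 8 culture arrays and the 12 DWT and DKO arrays were fitted apart, with 4 and 6 residual degrees of freedom. Replicate numbers follow accession order, except that sex marks the DWT mice. Their pairing comes from the labels, and the deviations of the male arrays from the group means correlated at 0.02 to 0.12 between stages. Nothing says that the 2 arrays of a culture group were separate cultures, so p-values measure the spread between these arrays. A group near background was set at its background level to give a bound. The fits were tested on simulated data.

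The members, the other gene lists and the tests were chosen with earlier results of these data known. Members named were, in each comparison, drawn from the 10 largest rises and falls called without overlap and from a fixed set of role members and tissue forms. The plan for every other list was its 3 largest changes each way. The genes named from those lists do not follow it throughout: some larger changes are left out and some smaller ones named. Other genes named were chosen after their values were seen. Alternatives were other scalings, no trend, 1 fit of all arrays, a filter on dim probe sets, single arrays left out and the mouse as a replicate block.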

Additional observations from a re-analysis of the deposited data

How the results depend on the processing

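With 2 arrays a group, 1 array decides many calls, and signals near background limit the tissue-restricted forms. The replicate block of the mouse, possible for the 6 DWT arrays only, gave 1 call from I to II+III, 9 from II+III to IV and 32 from I to IV, and the other groups carry no label that pairs arrays. In 1 fit of all 20 arrays the members called numbered 4 (DWT II+III to IV), 17 (DWT I to IV), 4 (DKO II+III to IV), 17 (DKO I to IV), 2 and 1 (DKO against DWT at I and II+III), 0 (IL-6 at D2), 38 and 30 (D2 against D1 without and with IL-6). Without the intensity trend there was 1 call in each II+III to IV step and 1 for IL-6 at D2. Leaving out dim probe sets gave 1 call in each II+III to IV step, 8 in DKO I to IV and 5 for IL-6 at D2. Quantile normalization gave 0 calls in DKO I to II+III and 7 in DKO I to IV. Median centring moved the members' median for D2 against D1 to -0.99 and -0.77 without and with IL-6. Leaving out 1 array at a time, the calls ranged from 0 to 8 (DWT II+III to IV), 0 to 27 (DWT I to IV, 27 without DKO-I replicate 2), 0 to 44 (DKO I to II+III), 0 to 6 (DKO II+III to IV), 1 to 47 (DKO I to IV), 0 to 48 and 0 to 3 (DKO against DWT at I and II+III), 0 to 25 (the I to II+III step between genotypes) and 0 to 3 (IL-6 at D2). The counts of 44, 47, 48 and 25 are without DKO-I replicate 1 and those of 8, 6 and 3 between genotypes without DKO-I replicate 2. The median ranged from -0.30 to 0.04 (DKO I to II+III), -0.24 to 0.12 (DKO II+III to IV), -0.409 to -0.079 (DKO I to IV), 0.076 to 0.262 (IL-6 at D2) and -0.786 to -0.526 (D2 against D1 with IL-6). Of the 69 calls for D2 against D1 without IL-6, 36 were kept under every alternative and 50 under all but the fit of 20 arrays, and of the 58 with IL-6, 29 and 40; none was reversed. The shares of all named probe sets called under the same settings are not given beside the counts in this section. These counts show how far the calls depend on the setting and cannot be read as a result about the members. The causes were not tested.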

Other observations

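Genes that serve the respiratory complexes also changed from stage I to IV in DWT, where 10.5% of all named probe sets fell and 8.17% rose. Of 46 assembly factors 7 fell and 1 rose, among them Uqcc1 and Uqcc3, which help cytochrome b into complex III, at -2.20 ± 0.42 and -2.35 ± 0.57 with 1 stage IV array of Uqcc3 near background, and Cox11, which delivers copper to complex IV, at 1.99 ± 0.50 on the log2 scale. Of 24 citric acid cycle and pyruvate dehydrogenase genes 4 fell and 1 rose, with Suclg1, a succinyl-CoA ligase subunit, at -2.47 ± 0.68. The gene that rose was Pcx, pyruvate carboxylase, with a bound of 2.94 over background. Of 14 clearance genes 3 rose and 3 fell, with Ulk1 at 2.76 ± 0.49 and Bcl2l13, a mitophagy receptor, at 2.35 ± 0.39. Nrf1, whose motif is described above, rose by 1.14 ± 0.32 over these stages (limma, adjusted p = 0.0335) and fell by 1.05 ± 0.16 from D1 to D2 without IL-6 (limma, adjusted p = 0.000422). Without DKO-I replicate 2, where 15.8% fell and 14.8% rose, 13 assembly factors, 5 citric acid cycle genes and 4 clearance genes fell, and 2, 3 and 7 rose, the genes named here among them. The clearance genes that fell in that fit were Atg7 at -2.21 ± 0.56, Atg5 at -2.12 ± 0.42, Fundc1 at -1.65 ± 0.435 and Phb2 at -0.59 ± 0.19. Over the same stages the neutrophil marker mean went from 15.88 to 8.67 and the erythroid mean from 12.79 to 15.74, and their part in these changes was not tested.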
